A study of Mus musculus with 112 samples.

Results

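The transferrin receptor gene Tfrc was followed through the hearts of male mice of 7 strains on a control diet or on caloric restriction (CR). It is 1 gene of the 19938 that could be measured, and it was chosen on its difference between the diets in these same hearts, so that difference is described here without a test. The levels of the strains within a diet, the differences between the strain effects and the genes that varied with Tfrc between mice of a group were not used in that choice. Tfrc was read by a single probe set, 10435075, as a log2 signal, on which a step of 1 is a doubling.

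The strains were 129S1/SvImJ, BALB/cJ, C57BL/6J, C3H/HeJ, CBA/J and DBA/2J, all inbred, and B6C3F1/J, a hybrid whose parents are C57BL/6J and C3H/HeJ. Every mouse was male, was housed alone and received 84 kcal per week of an AIN93M-based diet before the diets began at 8 weeks of age. Hearts were taken at 22 weeks of age after a night without food, with 8 mice in each of the 14 groups and 1 array per mouse. In the study's feeding protocol the CR ration of 129S1/SvImJ and C57BL/6J was reduced a second time and BALB/cJ mice received more food on both diets, so the degree of restriction differed between strains and cannot be told apart from strain.

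Iron circulates bound to transferrin. Transferrin receptor 1, the product of Tfrc, binds the loaded protein at the cell surface and carries it into endosomes, where the iron is freed, reduced by Steap3 and moved to the cytosol by Slc11a2 (DMT1). When a cell is short of iron, the iron regulatory proteins Aco1 and Ireb2 bind the Tfrc messenger and protect it from decay, and hypoxia-inducible factors and MYC are known to raise its transcription. Cardiac muscle uses iron for haem, iron-sulphur clusters and the respiratory chain, and red cell precursors are the cells richest in this receptor.

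The mouse gene lies on chromosome 16 from 32608896 to 32632794 on the plus strand (GRCm38.p6). The 300-base window around the first of 2 annotated starts (RefSeq, chr16:32608646-32608945, plus strand) is shown because HIF target genes are set beside Tfrc below. In capitals is ACGTG, 1 form of the core of the hypoxia response element.
Tfrc promoter: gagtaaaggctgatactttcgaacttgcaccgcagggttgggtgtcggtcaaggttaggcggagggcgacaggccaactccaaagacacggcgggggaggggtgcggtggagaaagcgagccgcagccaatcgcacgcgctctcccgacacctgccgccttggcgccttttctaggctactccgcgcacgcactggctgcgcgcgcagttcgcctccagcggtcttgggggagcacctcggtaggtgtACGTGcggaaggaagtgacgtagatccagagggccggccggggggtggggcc
The letters ACGTG were searched on both strands and occurred 1 time, beginning 2 bases before that start. The other form of the core, GCGTG, was not searched, so this is not a count of all cores. In the window of the second start (chr16:32608872-32609171) the same letters began at -228 from it. Of the 32851 promoter windows of the same length in that table, 19.6% held ACGTG, and CACGTG, the E-box that contains it, was not found in the Tfrc window but occurred in 7.15% of all windows. These matches describe the sequence, and no binding was measured.

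The array of DBA/2J CR replicate 7 correlated at 0.238 with the mean of its group and was left out, as the study also used 7 DBA/2J CR hearts. Its Tfrc signal was 5.53. The other arrays had correlations of 0.889 and above, and 8 of them stood apart within their group: BALB/cJ control replicate 7, C57BL/6J CR replicate 4, C3H/HeJ control replicate 6, C3H/HeJ CR replicate 8, CBA/J control replicate 1, DBA/2J control replicate 5, B6C3F1/J control replicate 7 and B6C3F1/J CR replicate 2. They were kept, and values without them are given where they matter. As a check of the tissue, the 12 ventricular cardiomyocyte markers had mean log2 signals of 10.1 to 11.9 in control and 10.6 to 11.9 in CR hearts.

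Tfrc was higher in CR than in control hearts in the means of 7 of 7 strains. The signal of single mice ran from 5.47 to 8.74 in the 56 control hearts and from 5.82 to 9.57 in the 55 CR hearts, so the diets overlapped when strains were pooled. The mean over strains was 6.71 in control and 8.33 in CR hearts, a difference of 1.62 ± 0.116 (SE) or 3.07-fold. The median difference of all genes was -0.00. Across all genes 7.69% were called higher and 4.34% lower in CR (limma, adjusted p under 0.05), and nothing is read from this for Tfrc, which was chosen on this contrast.

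**Figure D1:**
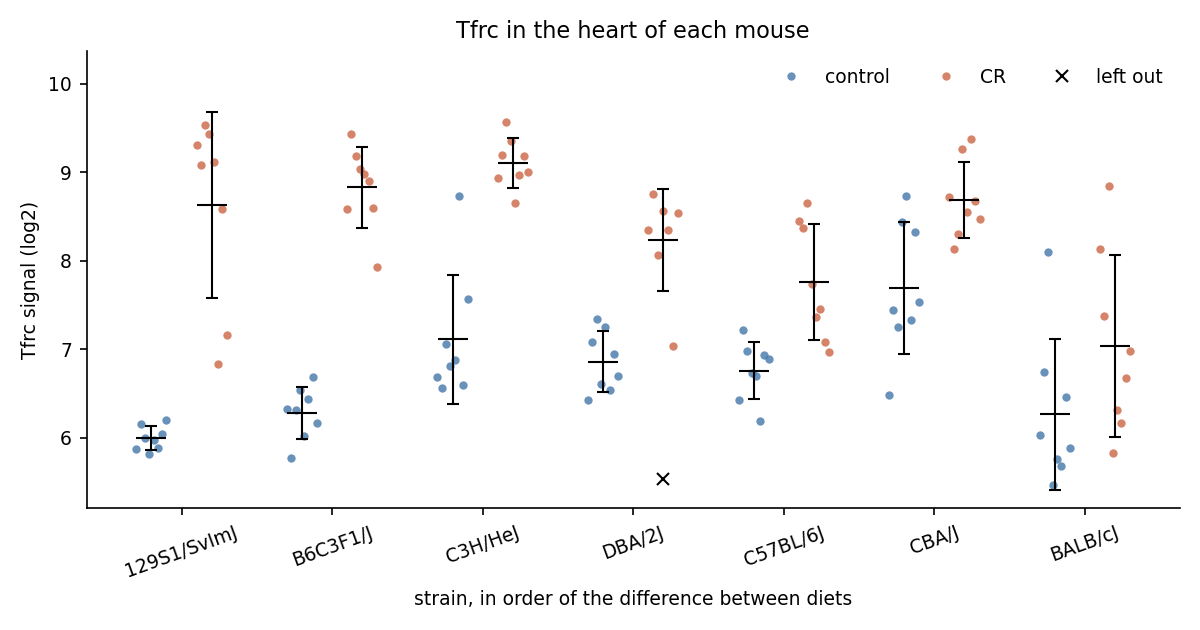
Tfrc log2 signal (vertical axis) of each mouse by strain (horizontal axis), control in blue and CR in orange, with the group mean and SD as black bars and the DBA/2J CR array that was left out as a cross. In 129S1/SvImJ and B6C3F1/J all 8 CR mice lay above every control mouse, and in CBA/J and BALB/cJ 2 of 8 did.

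The strains separated into those whose diets did not overlap and those whose diets did. In 129S1/SvImJ the control signal was lowest at 5.81, with a median of 5.99 and a highest value of 6.20, and the CR signal had a lowest value of 6.83, a median of 9.10 and a highest value of 9.53. In B6C3F1/J the control mice had 5.77, 6.32 and 6.68 as lowest, median and highest values and the CR mice 7.93, 8.94 and 9.43. In both strains 8 of 8 CR mice were above the highest control mouse. The difference was 2.64 ± 0.307 (SE) or 6.22-fold in 129S1/SvImJ and 2.55 ± 0.307 or 5.85-fold in B6C3F1/J.

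C3H/HeJ and DBA/2J came next. The C3H/HeJ control signal had a lowest value of 6.56, a median of 6.85 and a highest value of 8.74, against 8.65, 9.09 and 9.57 in CR. DBA/2J control mice had 6.42, 6.82 and 7.34 and the 7 CR mice 7.03, 8.34 and 8.76. In C3H/HeJ 7 of 8 CR mice exceeded the highest control mouse, C3H/HeJ control replicate 6, and in DBA/2J 6 of 7 did. The difference was 2.00 ± 0.307 (3.99-fold) in C3H/HeJ and 1.37 ± 0.317 (2.59-fold) in DBA/2J, and without the arrays that stood apart these became 2.24 and 1.43.

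The smaller differences were those of C57BL/6J, CBA/J and BALB/cJ. C57BL/6J control mice had 6.19, 6.81 and 7.21 as lowest, median and highest signal and CR mice 6.96, 7.60 and 8.65, and 6 of 8 CR mice were above all controls. CBA/J control mice had 6.48, 7.49 and 8.73 and CR mice 8.13, 8.61 and 9.37. BALB/cJ control mice had 5.47, 5.95 and 8.09 and CR mice 5.82, 6.83 and 8.85. In each of CBA/J and BALB/cJ only 2 of 8 CR mice passed the highest control mouse. The values of CBA/J were high and those of BALB/cJ low on both diets. The differences were 1.00 ± 0.307 (2.00-fold), 0.99 ± 0.307 (1.99-fold) and 0.78 ± 0.307 (1.71-fold), in that order. Leaving out single mice moved the C57BL/6J value between 0.87 and 1.11, the CBA/J value between 0.82 and 1.14 and the BALB/cJ value between 0.52 and 1.04.

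The sizes of the strain effects differed from one another. The moderated F test of the strain by diet interaction gave F = 6.36 (limma, adjusted p = 0.00583), rank 34 of 19938 genes, where 0.712% of all genes were called. The call rested on the strains with the largest effects: without 129S1/SvImJ the adjusted p was 0.0696 and without B6C3F1/J 0.0836, whereas leaving out any 1 of the other 5 strains kept it under the threshold. The spread was not alike in the groups, from an SD of 0.136 in 129S1/SvImJ control mice to 1.05 in 129S1/SvImJ CR mice, while the fit used 1 spread for all groups. With array weights the adjusted p of this F test was 8.95e-05. Those weights are 1 per array, estimated over all genes. They cannot model a spread of Tfrc that differs between groups, so this limit of the test remains. The choice of the gene may also bear on this test, as stated above.

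Control hearts also differed by strain before any restriction. The mean Tfrc signal in control mice was lowest in 129S1/SvImJ, at 5.99 ± 0.136 (SD, n = 8), followed by BALB/cJ at 6.26 ± 0.849, B6C3F1/J at 6.28 ± 0.293, C57BL/6J at 6.76 ± 0.325, DBA/2J at 6.86 ± 0.341, C3H/HeJ at 7.11 ± 0.731 and CBA/J at 7.69 ± 0.746. The F test over the 7 control means gave F = 7.27 (limma, adjusted p = 9.96e-06), in a setting where 60.7% of all genes were called, so a strain difference as such was common among genes. In exact permutation tests 12 of the 21 strain pairs differed after adjustment over the pairs (2-sided). CBA/J was higher than every strain except C3H/HeJ, and 129S1/SvImJ was lower than every strain except BALB/cJ. Of the 6 pairs of neighbours in this order, the step from B6C3F1/J to C57BL/6J passed, with a difference of 0.48 and an adjusted exact permutation p of 0.0183, and the other 5 did not. The first and the last strain differed by 1.70, which is 3.25-fold (adjusted exact permutation p = 0.00109).

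CR hearts stood in another order. From the lowest mean upward the strains were BALB/cJ at 7.04 ± 1.03 (SD, n = 8), C57BL/6J at 7.76 ± 0.653, DBA/2J at 8.23 ± 0.572 (n = 7), 129S1/SvImJ at 8.63 ± 1.05, CBA/J at 8.69 ± 0.434, B6C3F1/J at 8.83 ± 0.459 and C3H/HeJ at 9.11 ± 0.282. The F test gave F = 10.9 (limma, adjusted p = 2.61e-08), with 59.6% of all genes called. None of the 6 neighbouring pairs and 8 of the 21 pairs in all differed in the exact permutation tests. BALB/cJ was lower than 129S1/SvImJ, CBA/J, B6C3F1/J and C3H/HeJ, and C57BL/6J lower than CBA/J, B6C3F1/J and C3H/HeJ. The remaining pair was DBA/2J against C3H/HeJ, with 0.87 lower in DBA/2J (adjusted exact permutation p = 0.00435).

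129S1/SvImJ thus had the lowest control mean and a place in the middle of the CR order. Its position in CR rested on a split within the group: 6 CR mice had Tfrc signals of 8.58 to 9.53, while CR replicates 6 and 8 had 6.83 and 7.16. All 8 were still above the highest control mouse at 6.20.

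The hybrid B6C3F1/J was set against the mean of its parents, C57BL/6J and C3H/HeJ. In control hearts its Tfrc signal was 6.28 against a parental mean of 6.94, a difference of -0.66 ± 0.266 (SE, 95% interval -1.18 to -0.13) that did not pass the test (limma, adjusted p = 0.104, 9.96% of all genes called). Its diet effect of 2.55 exceeded the parental mean of 1.50 by 1.05 ± 0.375 (0.31 to 1.80), which did not pass either (limma, adjusted p = 0.0728, 3.45% of all genes called). With array weights both passed, at -0.68 and 1.02.

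Mice of the same strain and diet differed in Tfrc more than in most genes. The SD within groups was 0.630 on the log2 scale over all mice, rank 169 of 19938 genes, against a median of 0.223. It was 0.553 in control and 0.699 in CR mice. A pair of single mice stood apart from their groups: C3H/HeJ control replicate 6, at 8.74 with the next mouse at 7.57, and DBA/2J CR replicate 6, at 7.03 with the next at 8.06.

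Because this spread was wide, genes could be set against Tfrc between mice of the same group, a measure from which the mean difference between the diets is removed. Whether mice of a group differed in their response to the diet was not tested. The slope of each gene on Tfrc, in log2 per log2, was positive for 467 genes (2.34% of those tested) and negative for 134 (0.672%) over all mice (limma, adjusted p under 0.05). These counts moved with the mice and the processing: they were 216 and 61 without 129S1/SvImJ and 294 and 70 without C3H/HeJ. The positive count was 297 without B6C3F1/J, 273 after another quantile normalization and 819 after median centring, and the negative count was 398 without CBA/J and 362 with array weights. Tissue was profiled in bulk, so a change in RNA per cell and a change in the number of cells of a type cannot be told apart.

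The genes with the highest within-group correlation with Tfrc were named by rank over all mice, so their values in single strains and single mice below are a description. Slc25a5, a mitochondrial ADP/ATP carrier, had r = 0.676 (rho 0.639, 56 control and 55 CR mice) and a slope of 0.168 ± 0.0199 (SE, limma adjusted p = 4.31e-09). The others above were Fbxl22, an F-box protein of the sarcomere, with r = 0.641, Cse1l, a nuclear export factor, with 0.634, the alpha tubulin Tuba4a with 0.629, Prelid3b, a lipid transfer protein of mitochondria, with 0.620, and Ap3m1, a subunit of the AP-3 sorting adaptor, with 0.619. Without the 2 mice farthest from the median in Tfrc these 6 correlations were between 0.549 and 0.635. The 6 genes were also higher in CR, each with an adjusted p under 0.05 (limma), as were 7.69% of all genes. The differences were 1.07 for Tuba4a, 0.53 for Fbxl22, 0.22 for Slc25a5, 0.18 for Cse1l, 0.17 for Prelid3b and 0.16 for Ap3m1. In each of the 7 strains taken alone, with both diets set to their own means, r was above 0 for Slc25a5 (0.337 to 0.898), Fbxl22 (0.0726 to 0.905), Cse1l, Prelid3b and Ap3m1, and Tuba4a was above 0 in 6 of 7, the exception being B6C3F1/J at -0.0698.

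Genes at the other end fell where Tfrc was high within a group. Ypel3 had r = -0.596, Gclm, which encodes part of the first enzyme of glutathione synthesis, -0.582, Gabarapl1, an autophagy protein, -0.576, the aldehyde oxidase Aox1 -0.575, the hydrolase-family gene Abhd1 -0.556 and Pdk4, the kinase that shuts off pyruvate dehydrogenase in fasting, -0.519. Pdk4 had the steepest slope of these 12 genes, at -0.370 ± 0.0609 (SE, limma adjusted p = 2.01e-05). Without the 2 farthest mice the 6 correlations were between -0.548 and -0.490. These genes were also lower in CR, by -0.62 for Gclm, -0.60 for Aox1, -0.51 for Abhd1, -0.38 for Pdk4 and -0.24 for Ypel3. Those differences had adjusted p under 0.05 (limma), as 4.34% of all genes did, and Gabarapl1 did not pass (-0.09, adjusted p = 0.0930).

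CBA/J had signs of its own for 3 of these genes, and they rested on 1 array. Within CBA/J the correlation with Tfrc was 0.220 for Aox1, 0.262 for Pdk4 and 0.00868 for Gabarapl1. CBA/J control replicate 1, the array with the lowest correlation to its group among those used, had the lowest Tfrc of its group at 6.48. Without it the values within CBA/J were -0.340, -0.345 and -0.334 (n = 15). Abhd1, at -0.178 within CBA/J, became 0.00453 without it. Without all 8 arrays that stood apart the correlations over the 103 other mice were 0.693 for Slc25a5, 0.762 for Fbxl22, 0.732 for Tuba4a, -0.711 for Aox1 and -0.634 for Pdk4. They were nearer to 0 than over all mice for Cse1l (0.582), Ap3m1 (0.577), Abhd1 (-0.519) and Prelid3b (0.616).

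**Figure D2:**
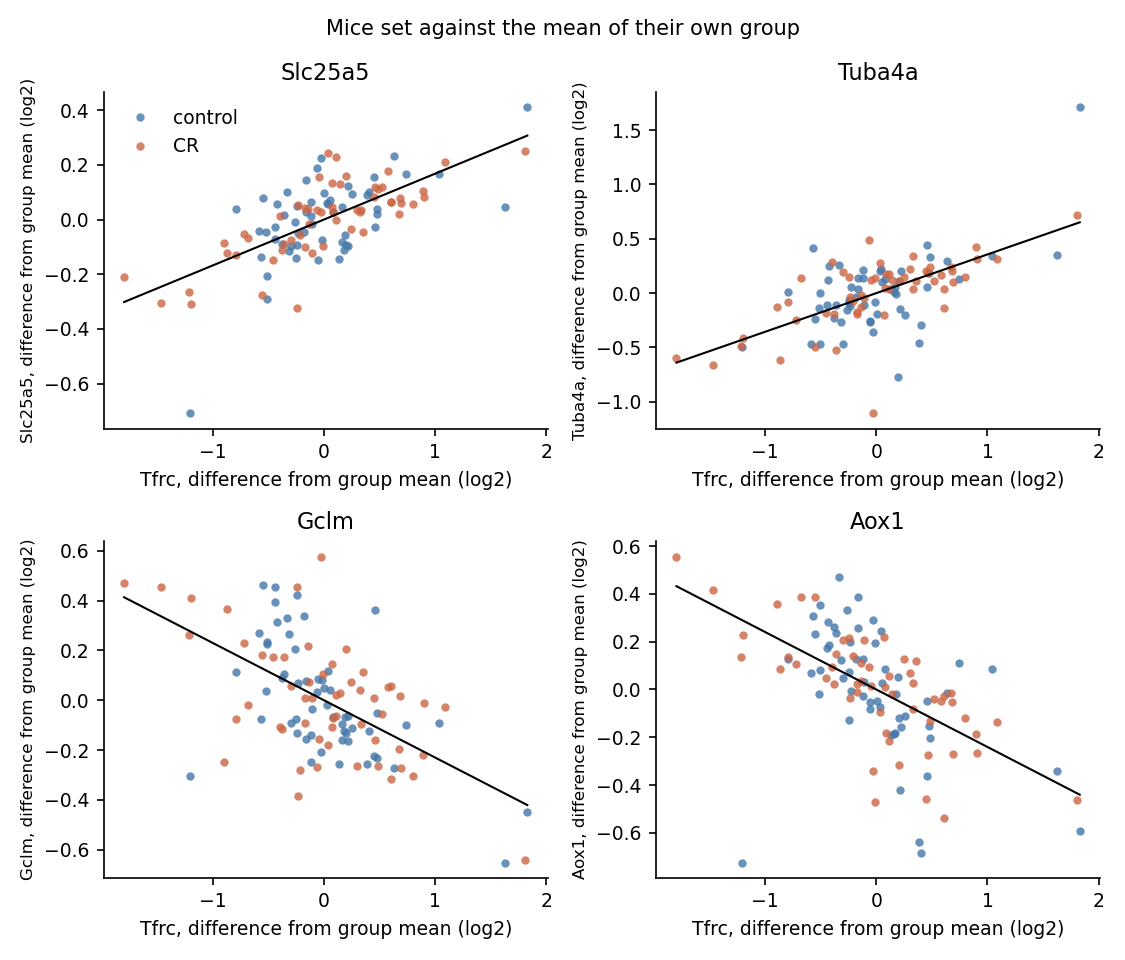
Difference of each mouse from its own group mean in Tfrc (horizontal axis, log2) and in Slc25a5, Tuba4a, Gclm and Aox1 (vertical axes, log2), control mice in blue and CR mice in orange, with the fitted slope over all mice as a line. Slc25a5 and Tuba4a went up with Tfrc (r = 0.676 and 0.629), Gclm and Aox1 went down (r = -0.582 and -0.575).

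Single mice show the same co-variation. BALB/cJ control replicate 3 had a Tfrc signal of 8.09, which is 1.83 above its group mean, and this control mouse also had 11.4 in Tuba4a against a group mean of 9.68, and 9.68 in Alas1 against 8.74. Its Pdk4 was 10.7 against 11.7. In the opposite direction, 129S1/SvImJ CR replicates 6 and 8, at 6.83 and 7.16 in Tfrc against a group mean of 8.63, had 10.5 and 10.4 in Tuba4a against 11.1, and 12.1 and 11.6 in Pdk4 against 10.8. C3H/HeJ control replicate 6 was 1.62 above its group mean in Tfrc. It differed from its group by 0.35 in Tuba4a, -0.29 in Pdk4, -0.65 in Gclm, 0.04 in Slc25a5 and -0.06 in Alas1. Of the 12 genes named above, all except Fbxl22, at -0.17, lay on the side of their slope in this mouse. These mice were picked for their Tfrc values, and they were among the mice over which the 12 genes were chosen, so like signs are partly built in. Their values are given as a description.

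Control and CR mice are separate animals, so genes taken in one diet could be measured in the other. These sets may not be fully independent. In 16 of 55 same-numbered pairs the control mouse correlated best with the CR mouse of its own number, out of 8 CR mice (7 in DBA/2J). In BALB/cJ Tfrc itself was highest in replicate 3 and lowest in replicate 4 on both diets. The permutations used below did not model such sharing by number. In the 56 control mice 198 genes had a called slope (0.993%), 127 positive and 71 negative, and in the 55 CR mice 296 did (1.48%), 231 positive and 65 negative. The lists had 15 genes in common, which is 7.58% of the control list and 5.07% of the CR list, and the slope had the same sign for all 15. These were Slc25a5, Cse1l, Tuba4a, Ap3m1, Mfap3l, Hccs, Armc1, Itpa, Tubb6, Nme1, Pip5k1b, Magt1, Gask1b, Abhd1 and Gclm. Of the genes called in control mice, 120 of 198 (60.6%) had a slope of the same sign in CR mice. The share of all genes with the same sign in both diets was not computed, so nothing is read from this value. The control count rested on 1 mouse: without C3H/HeJ control replicate 6 it was 29. The CR count was 181 without DBA/2J CR replicate 6. With the replicate number as a block the counts were 22 in control and 130 in CR mice.

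The 8 highest and 8 lowest correlations in control mice were then read in CR mice. Cse1l, at r = 0.618 in control, had r = 0.701 (rho 0.772) in CR mice, and Ap3m1, at 0.604 in control, had 0.681 (rho 0.638), each with a permutation p of 1e-05 for r and for rho, the smallest that 100000 permutations within groups can give. Gclm had -0.582 in control and -0.588 (rho -0.450) in CR mice, with adjusted permutation p-values of 0.000853 and 0.0118 over the 16 genes. These 3 of the 16 genes passed in CR mice. In all, 12 of 16 had the same sign, again without the share of all genes to set beside it.

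The remaining 13 genes had weaker values in CR mice than in the mice they were taken from. Ano4 (0.361), Chrna2 (-0.384) and Rnase1 (-0.387) had adjusted permutation p-values of 0.0738, 0.0644 and 0.0667. The complement genes Cfp and C1qc, at 0.622 and 0.609 in control mice, had -0.150 and -0.0482 in CR mice, and Txndc16 went from 0.632 to -0.0675. Ccn1, a matrix-associated signalling protein, had -0.683 in control, the lowest value there, and -0.195 in CR mice. The mean of the 11 macrophage markers had r = 0.434 with Tfrc in control mice (0.311 without the 2 farthest mice) and -0.120 in CR mice, as a description. This was not particular to macrophages: the fibroblast mean had 0.343 in control and -0.146 in CR mice, and the atrial mean 0.284 and -0.143. The skeletal muscle mean had -0.291 and -0.0484. The macrophage mean ranged from 6.57 to 8.00 in control and from 6.82 to 8.53 in CR hearts. Of the 11 macrophage markers 4 were called higher in CR, against 7.69% of all genes. None had a called slope over all mice (limma, 2 positive at an unadjusted p under 0.05). The part of macrophage content in these values was not tested. With the macrophage and fibroblast marker means as covariates, 1775 genes were called in control mice.

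**Figure D3:**
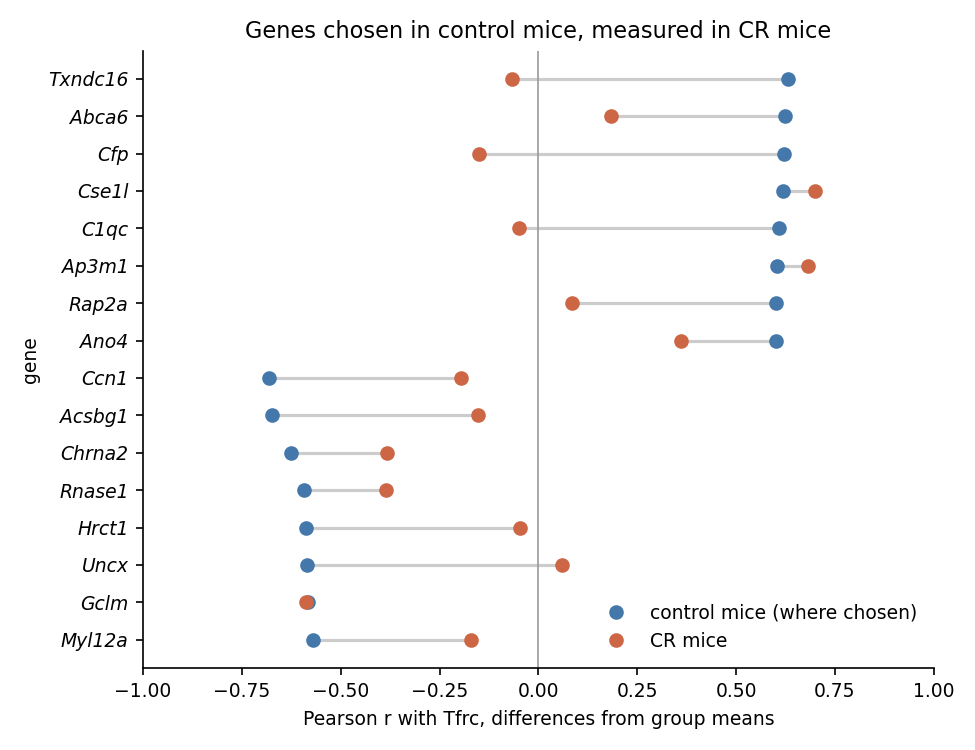
Pearson correlation with Tfrc of within-group differences (horizontal axis) for the 16 genes chosen in the 56 control mice (blue) and the same genes in the 55 CR mice (orange). Cse1l, Ap3m1 and Gclm had like values in both diets, whereas Txndc16, Cfp, C1qc and Uncx crossed 0.

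The iron genes were read against the shares of all genes called, 7.69% higher and 4.34% lower in CR. Of 22 measured genes of iron uptake other than Tfrc, 3 were higher in CR and 1 lower (limma, adjusted p under 0.05), with a median difference of -0.00. Those higher were Steap3, the endosomal ferrireductase, by 0.18 ± 0.0352 (SE), Slc11a2, the endosomal iron carrier, by 0.16 ± 0.0459, and Snx3, a sorting nexin that recycles the receptor, by 0.15 ± 0.0310. Hjv, a BMP co-receptor, was the lower one, at -0.14 ± 0.0458. Slc11a2 was the 1 gene of the list with a called slope on Tfrc, 0.134 ± 0.0369 (limma, adjusted p = 0.0252). Its slope was not called in either diet alone (limma, adjusted p = 0.144 in control and 0.181 in CR mice). Within strains its correlation with Tfrc ran from -0.402 in B6C3F1/J to 0.804 in BALB/cJ. Tfr2, the second transferrin receptor, had a mean signal of 4.40 and a difference of 0.00 ± 0.0335.

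On the side of storage, export and sensing, 0 of 21 genes were higher and 3 lower in CR (limma, 1 and 5 at an unadjusted p under 0.05), against 7.69% and 4.34% of all genes. Slc40a1 encodes ferroportin, the iron exporter. Its signal had a lowest value of 6.36, a median of 7.56 and a highest value of 8.07 in control hearts, and 6.28, 6.91 and 7.39 in CR hearts, so the pooled diets overlapped. It fell by 0.56 on the log2 scale (SE 0.0475), and its slope on Tfrc was -0.144 ± 0.0379 (limma, adjusted p = 0.0174). That slope was not called in either diet alone (limma, adjusted p = 0.231 in control and 0.0778 in CR mice). Within strains its correlation with Tfrc ran from -0.710 in C3H/HeJ to 0.230 in CBA/J, the latter being -0.179 without CBA/J control replicate 1. Cp, ceruloplasmin, which oxidises exported iron, differed by -0.26 ± 0.0402 with a slope of -0.109 ± 0.0325 (limma, adjusted p = 0.0424). The slope of Cp was -0.00185 in control mice (r = -0.00537, limma adjusted p = 0.988) and -0.177 in CR mice (r = -0.536, adjusted p = 0.0105), and the difference between these was not tested. Ftl1, the ferritin light chain, differed by -0.15 ± 0.0444 with no called slope. The iron regulatory protein genes Aco1 (0.09 ± 0.0383, adjusted p = 0.124) and Ireb2 (0.05 ± 0.0413, adjusted p = 0.518) and the ferritin heavy chain Fth1 (0.01 ± 0.0160, adjusted p = 0.827) did not pass. Messenger levels do not measure the activity of regulatory proteins or the stored iron.

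Among 21 haem genes 4 were higher and 2 lower in CR, again against 7.69% and 4.34% of all genes. Alas1, the first and rate-limiting enzyme of haem synthesis outside red cells, had a lowest value of 7.58, a median of 8.59 and a highest value of 9.92 in control hearts and 8.28, 9.52 and 10.4 in CR hearts. Its mean difference was 0.92 ± 0.0716 (SE), and its slope on Tfrc within groups was 0.307 ± 0.0530 (limma, adjusted p = 6.04e-05), with r = 0.429 in control and 0.589 in CR mice. Within strains its correlation with Tfrc ran from -0.0520 in B6C3F1/J to 0.890 in CBA/J, the latter being 0.834 without CBA/J control replicate 1. Blvra (0.13), Abcg2 (0.14) and Uros (0.11) were the other genes that were higher. Clpx, a mitochondrial protease subunit that acts on the Alas enzymes, differed by -0.24, and Hmox1, which breaks haem down, by -0.16 with a slope of -0.145 ± 0.0396 (adjusted p = 0.0239).

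**Figure D4:**
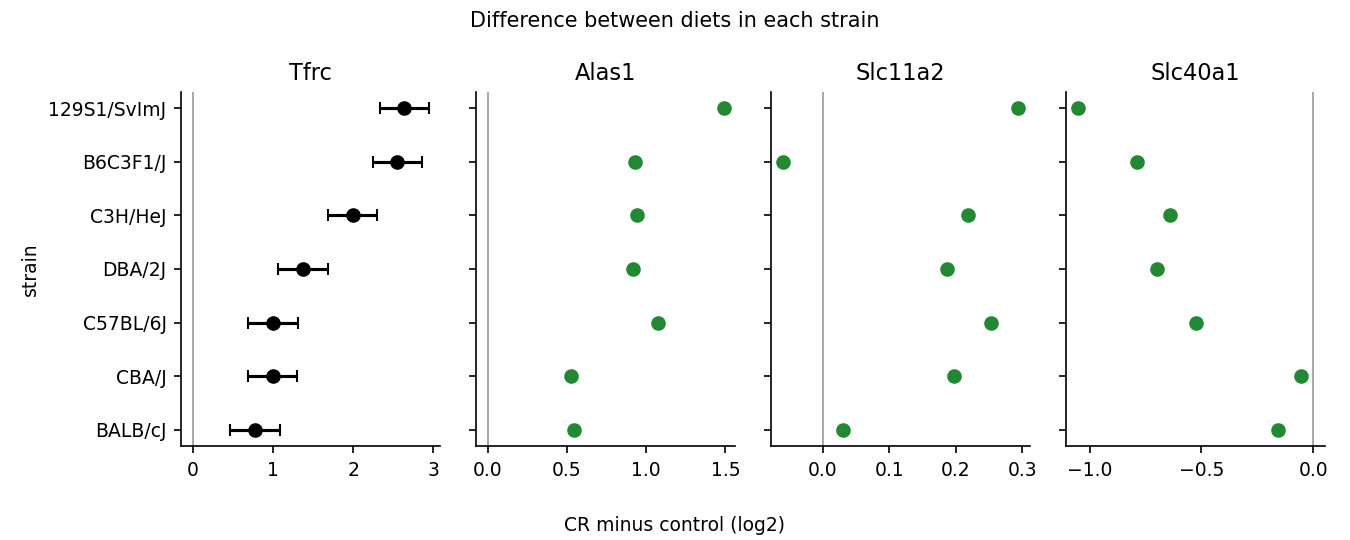
CR minus control (horizontal axes, log2, scaled separately) in each strain for Tfrc with its SE and, without error bars, for Alas1, Slc11a2 and Slc40a1, with strains in the order of the Tfrc difference. Alas1 was above 0 and Slc40a1 below 0 in all 7 strains, and CBA/J and BALB/cJ had the smallest differences of both.

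Per strain, Alas1 differed most in 129S1/SvImJ, by 1.49, and least in CBA/J and BALB/cJ, by 0.52 and 0.55. Slc11a2 differed by 0.29 in 129S1/SvImJ, -0.06 in B6C3F1/J, 0.20 in CBA/J and 0.03 in BALB/cJ. Slc40a1 differed by -1.05 in 129S1/SvImJ, -0.79 in B6C3F1/J, -0.05 in CBA/J and -0.16 in BALB/cJ. All these values come from the same mice, so they are set side by side without a test.

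Of 24 genes of mitochondrial iron and iron-sulphur clusters, 9 were higher and 2 lower in CR, with a median difference of 0.06, against 7.69% and 4.34% of all genes and their median of -0.00. Over the 4 iron and haem lists 16 genes were higher in CR, and 10 were with the macrophage and fibroblast marker means as covariates. The higher ones included the cluster assembly factors Isca1 (0.18 ± 0.0296), Glrx5 (0.19 ± 0.0387) and Isca2 (0.12 ± 0.0297), and Iba57 (-0.25 ± 0.0513) and the iron importer Slc25a28 (-0.08 ± 0.0236) were lower. Slopes on Tfrc were positive for Nubp1 (0.0977) and Nubp2 (0.0718) and negative for Iba57 (-0.145) and Slc25a28 (-0.0681). The mean of the list had r = -0.0824 with Tfrc in control and 0.412 in CR mice. The mean of the uptake list had 0.239 in control and -0.357 in CR mice. For the storage, export and sensing list these were 0.223 and -0.312, and for the haem list 0.156 and 0.217. These correlations of list means are given as a description.

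**Figure D5:**
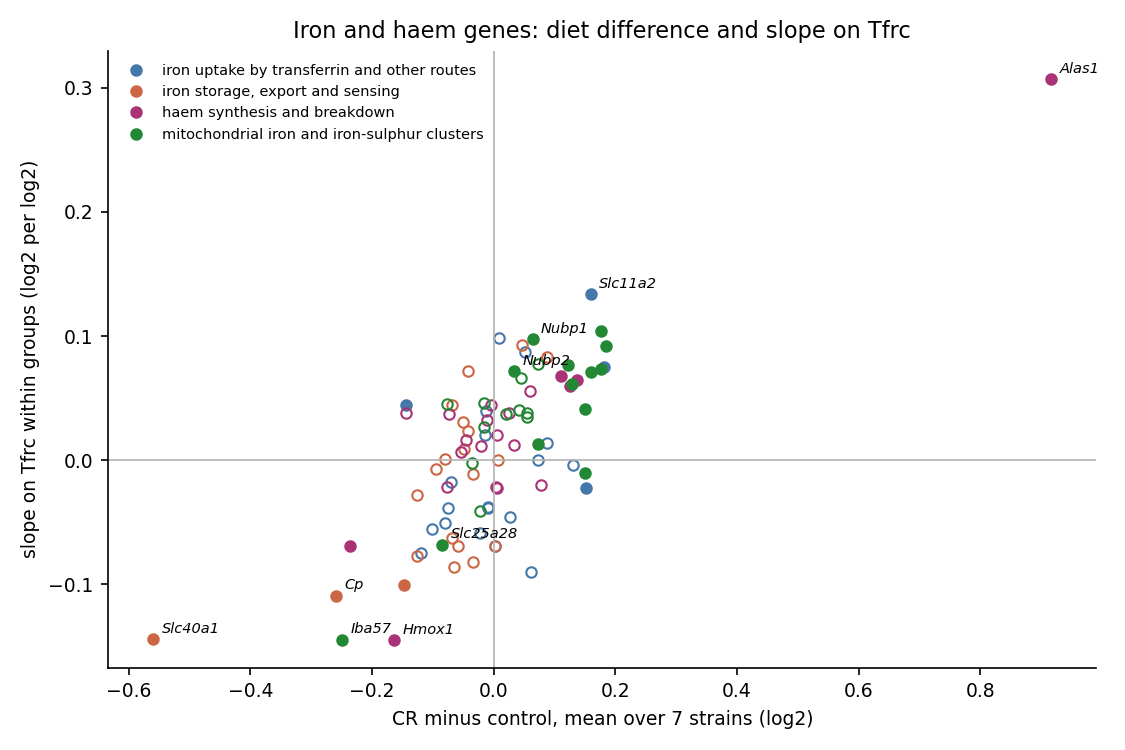
CR minus control over 7 strains (horizontal axis, log2) and slope on Tfrc within groups (vertical axis, log2 per log2) of the measured genes of 4 iron and haem lists, filled where either test passed and named where the slope did. Alas1 lay at 0.92 and 0.307 and Slc40a1 at -0.56 and -0.144.

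Genes of pathways known to act on Tfrc transcription were read against the same shares of all genes, 7.69% higher and 4.34% lower in CR, and 2.34% with a positive and 0.672% with a negative slope. Of 22 HIF target genes 4 were higher and 2 lower in CR, and 1 had a positive slope on Tfrc (Ldha, 0.0784) and 2 a negative one (Bnip3, -0.177, and Plin2, -0.176). Of 18 MYC target genes 2 were higher and 2 lower, and Ldha and Odc1 (0.115) had positive slopes. Of 18 thyroid hormone target genes of heart 2 were higher and 1 lower, with a positive slope for the potassium channel subunit Kcne1 (0.243) and a negative one for the uncoupling protein Ucp3 (-0.274). The median slope of all genes was -0.0019, against -0.017 for the HIF, 0.018 for the MYC and -0.0065 for the thyroid list.

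No measured marker of red cell precursors, the cells richest in Tfrc, passed a test. Of 18 erythroid markers 0 were called higher or lower in CR and 0 had a called slope on Tfrc (limma). At an unadjusted p under 0.05 both counts were also 0. The shares of all genes were 7.69% higher and 4.34% lower in CR. Of the 25 listed markers 7 were not measured, among them the globins Hba-a1, Hbb-b1 and Hbb-b2. Some measured ones had low mean signals, such as Rhag at 3.45 and Kel at 3.75, so these counts say little about red cell precursors. Their mean signal ranged from 5.09 to 6.10 in control and from 5.08 to 5.81 in CR hearts. Alas2, the erythroid form of the haem enzyme, differed by 0.01 ± 0.146 (SE) and had r = -0.0180 with Tfrc within groups. Of 11 proliferating cell markers, another setting of high Tfrc, 0 were higher and 5 lower in CR (limma), against the same shares. At an unadjusted p under 0.05 these counts were 0 and 8. The proliferating cell markers had 0 called slopes on Tfrc, and 0 at an unadjusted p under 0.05.

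Over the 14 group means, Tfrc was set against all other genes as a description, since the means carry both the diet and the strain. The most alike were Dipk1b (r = 0.940), the copper importer Slc31a1 (0.913), Timm22 (0.895), a subunit of a mitochondrial protein import complex, Hpf1 (0.891), Alas1 (0.868) and Rwdd2b (0.865). At the other end were the translation factor Eif4b (-0.932), 4732471J01Rik (-0.932), Gclm (-0.917) and catalase, Cat (-0.913). Within groups the same genes had r = 0.482 for Dipk1b, 0.453 for Slc31a1, -0.380 for Eif4b, -0.191 for 4732471J01Rik and -0.458 for Cat.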

How the data were processed

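The authors deposited log2 signals of Affymetrix Mouse Gene 1.0 ST arrays, 1 per probe set, computed with Expression Console by RMA (background correction, quantile normalization across arrays, median polish). Software versions and the build of the probe annotation were not stated. Signals are relative to the other arrays, and an array has no read depth, so the number of mice limits the precision. Array medians lay between 5.31 and 5.70.

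Of 35556 probe sets, 21789 had 1 gene symbol, 1621 several and 12146 no symbol in the platform annotation. The brightest probe set stood for each of 999 genes with several, which left 19938 genes, with no filter on signal. RefSeq (GRCm38.p6) held the gene identifiers of 21698 probe sets.

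Groups followed strain and diet in the labels. The model, fitted to every gene by limma 3.58.1 in R 4.3.3 (data.table package, version 1.17.8), had 14 group means over 56 control and 55 CR arrays (97 residual degrees of freedom), and slopes added the Tfrc signal as a covariate. Tests were 2-sided, adjusted by Benjamini and Hochberg over all genes at 0.05. Strain pairs had exact permutation tests adjusted over 21 pairs per diet, and correlations had 100000 permutations within groups (Python 3.11.15, numpy 2.4.6, scipy 1.17.1, pandas 2.3.3, matplotlib 3.10.9). The scripts were tested on simulated data.

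Tfrc, the 7 gene lists and the 10 lists of cell type markers were chosen with earlier results of these data known. Named genes were the 6 highest and 6 lowest within-group correlations over all mice, the 8 and 8 in control mice, the 6 highest and 4 lowest over group means, and list members past a test or, beside these, a few named for their role. Among cell type markers not described above, 3 of 12 white adipocyte, 4 of 11 endothelial and 1 of 9 fibroblast genes were lower in CR, against 4.34% of all genes. Of 12 ventricular genes 2 were higher, against 7.69%. On Tfrc, 1 of the 11 endothelial genes had a negative slope, against 0.672% of all genes, and 1 of the 12 ventricular genes a positive one, against 2.34%. Atrial, lymphocyte and skeletal muscle markers had 0 calls in limma, and at an unadjusted p under 0.05 they had 0, 4 and 0 genes lower in CR.

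Alternatives were another quantile normalization, median centring, a filter at the 40th percentile of mean signal (5.20, leaving 11963 genes), array weights, averaging probe sets of 1 gene, a trended robust variance, an F test without moderation, control or CR arrays alone, the replicate number as a block, marker covariates, and leaving out arrays or strains.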

Additional observations from a re-analysis of the deposited data

Results flagged for a closer look

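C3H/HeJ control replicate 6 had a Tfrc signal of 8.74, with the nearest mouse of its group at 7.57, and DBA/2J CR replicate 6 had 7.03, with the nearest at 8.06. Each gap to the rest was large for the range of its group, and chance alone flags about 1 in 20 groups. Without the first mouse the C3H/HeJ difference between diets was 2.23 in place of 2.00, the count of genes with a slope on Tfrc in control mice was 29 in place of 198, and the interaction had an adjusted p of 0.00188 (limma).

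The effect of the diet on Tfrc differed between strains in the interaction test (limma, adjusted p = 0.00583), from 0.78 in BALB/cJ to 2.64 in 129S1/SvImJ. The degree of restriction also differed between strains, and its part in this difference was not tested.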

How the results depend on the processing

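The difference of Tfrc between diets kept its direction in each strain and in the mean over strains (1.45 to 1.76) under every alternative run, and the F tests over the control and over the CR means stayed past the threshold. The interaction lost its call without 129S1/SvImJ (adjusted p = 0.0696) or without B6C3F1/J (0.0836). Under array weights the hybrid contrasts gained theirs (-0.68 and 1.02).

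The counts of genes with a slope on Tfrc moved most. Over all mice 467 were positive, 134 negative, and 198 and 296 were called in control and CR mice. With DBA/2J CR replicate 7 kept they were 5215 positive, 4343 negative and 7810 in CR mice, and the slopes of Gabarapl1 (0.0854) and Pdk4 (0.0382) turned positive. Another quantile normalization gave 273 positive and 112 in control mice, median centring 819 and 386, and the filter on signal 304 in control and 485 in CR mice. Array weights gave 362 negative and 500 in CR mice. The 4 marker means of atrial cells, adipocytes, erythroid cells and lymphocytes as covariates gave 818 positive, 240 negative and 35 in control mice, and macrophage and fibroblast means, chosen after seeing the data, 1775 in control and 534 in CR mice. With those 8 arrays removed 243 were negative and 41 called in control mice. Without both mice that stood apart in Tfrc, also chosen after seeing the data, the counts were 29 in control and 181 in CR mice, and the same without C3H/HeJ control replicate 6 alone (29) or DBA/2J CR replicate 6 alone (181). Without 129S1/SvImJ 216 were positive and 61 negative, without C3H/HeJ 294 and 70, without CBA/J 398 negative, and without B6C3F1/J 297 positive. The causes of these moves were not tested.

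Iron and haem genes numbered 16 higher and 8 lower in CR. They were 1 and 5 with DBA/2J CR replicate 7 kept, 10 higher with macrophage and fibroblast means, and 14 lower under array weights and with those 8 arrays removed.

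The replicate numbers did not meet the condition for pairing, since the lowest correlation of same-numbered mice over all genes was -0.441, in C3H/HeJ. The median by strain ran from -0.124 to 0.304 for same numbers and from -0.0618 to 0.108 for other numbers, with the same-number median the higher one in 6 of 7 strains and the lower one in C3H/HeJ, and 16 of 55 mice correlated best with their own number. Pairing was judged over all genes and was not tested for Tfrc alone. In BALB/cJ replicate 3 had the highest Tfrc signal on both diets (8.09 in control, 8.85 in CR). Replicate 4 of BALB/cJ had the lowest on both (5.47 and 5.82). With a replicate block the counts of slopes were 22 in control and 130 in CR mice, and no other call changed. The methods' t-test per strain is not given, because the gene was chosen on that contrast.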
